A study of Homo sapiens with 3 samples.

Results

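Notch is a cell-to-cell signalling system in which a ligand of the Delta or Jagged family on a cell binds a NOTCH receptor on its neighbour. The receptor is then cut by ADAM proteases and by gamma-secretase, and its intracellular part enters the nucleus, joins the DNA-binding protein RBPJ and switches on repressors of the HES and HEY families. The pathway maintains neural progenitors and melanocyte stem cells, and it is studied in melanoma, a tumor of the neural crest-derived melanocyte. The 10 genes described here are the receptors NOTCH1, NOTCH2, NOTCH3 and NOTCH4, the ligands JAG1, JAG2, DLL1 and DLL3, and the targets HES1 and HEY1. They were taken by gene name on the array, out of 14889 known genes, and are measured by 14 of its 41000 probes.

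The cells were 1205Lu, an established human melanoma line that was grown out of a mouse lung metastasis of WM793 cells. The original monolayer (OM) had 14 days in standard medium, RPMI-1640 containing 10% FCS. The melanoma bodies (MB), attached 3D-spheroids, had 14 days in hESC medium, in which serum is replaced by KnockOut serum replacement at 20%. The new monolayer (NM) was grown from such bodies, with 10 days in standard medium after the 14 days in hESC medium, and remaining bodies were taken out before RNA was prepared. Each population was measured on 1 Agilent 1-colour array, all on the same slide. The design has no replicate cultures, so no test was possible, and medium, growth form and culture cannot be told apart.

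Signals are given in arbitrary units (a.u.) as deposited. Ratios were taken after scaling to the mean of the housekeeping genes GAPDH, ACTB and HSP90AA1, which divides MB signals by 0.978 and NM signals by 0.877 relative to OM. Between 64.7% and 71.0% of probes per array were well above background, the scanner software's mark for a detected probe. Probes printed in 10 spots gave the only repeated measurement. For a single spot of these, the SD of the log2 ratio between arrays was 0.03 to 0.04 where the dimmer signal was over 1000 a.u., 0.06 to 0.07 between 100 and 1000 a.u., and 0.22 to 0.27 between 20 and 100 a.u. It is a spread of spots and says nothing of how cultures vary. Of the markers listed for the melanocyte lineage and melanoma, SOX10, S100B, MITF and the pigment genes DCT and SILV were well above background on all 3 arrays. So was VIM, which the study showed among its housekeeping genes. MLANA was well above background in OM and MB, and the pigment enzymes TYR and TYRP1 were not on any array.

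The receptor NOTCH1, the ligand DLL1 and the target HES1 had their highest signals in the bodies, and the target HEY1 had its lowest there. By their brightest probes, NOTCH2, NOTCH3, NOTCH4, JAG1, JAG2 and DLL3 differed by less than 2-fold between any pair of populations. A gene was counted where its ratio reached 2-fold and its brighter signal exceeded 100 a.u. Relative to OM, 2 of 9 listed genes were higher in MB (NOTCH1 and DLL1), where 6.66% of 10381 known genes were, and 0 of 9 were lower (3.81% of known genes). Relative to NM, 3 of 9 were higher in MB (NOTCH1, DLL1 and HES1, against 11.1% of known genes) and 1 of 9, HEY1, was lower (9.23%). DLL1 passed the signal filter through MB alone in both comparisons. With only probes well above background on both arrays, the count higher in MB relative to OM was 1. Between the monolayers, 1 of 8, HEY1, was higher in NM (4.68%) and 0 of 8 were lower (2.98%).

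At 5-fold, the counts in MB relative to OM were 1 gene higher, DLL1, and 0 lower, where 1.17% and 0.751% of known genes passed. DLL1 passed the signal filter through MB alone, and the count was 0 with normexp, with no background subtraction and with only probes well above background on both arrays. Relative to NM they were 1 higher, NOTCH1, and 1 lower, HEY1, where 1.66% and 1.62% passed. NOTCH1 was past 5-fold in 2 and HEY1 in 7 of 10 processing alternatives. These include the deposited value table, which held the same values, so its result could not differ. Between the monolayers 0 genes passed in either direction (0.699% higher and 0.155% lower among known genes). The median log2 ratio of the listed genes was 0.54 in MB relative to OM, 0.43 relative to NM, and 0.18 in NM relative to OM, and the same medians over all known genes were 0.15, 0.05 and 0.11. NOTCH3, under 50 a.u. on every array, did not pass the signal filter and is in none of these counts, and DLL1 is left out between the monolayers for the same reason.

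**Figure D1:**
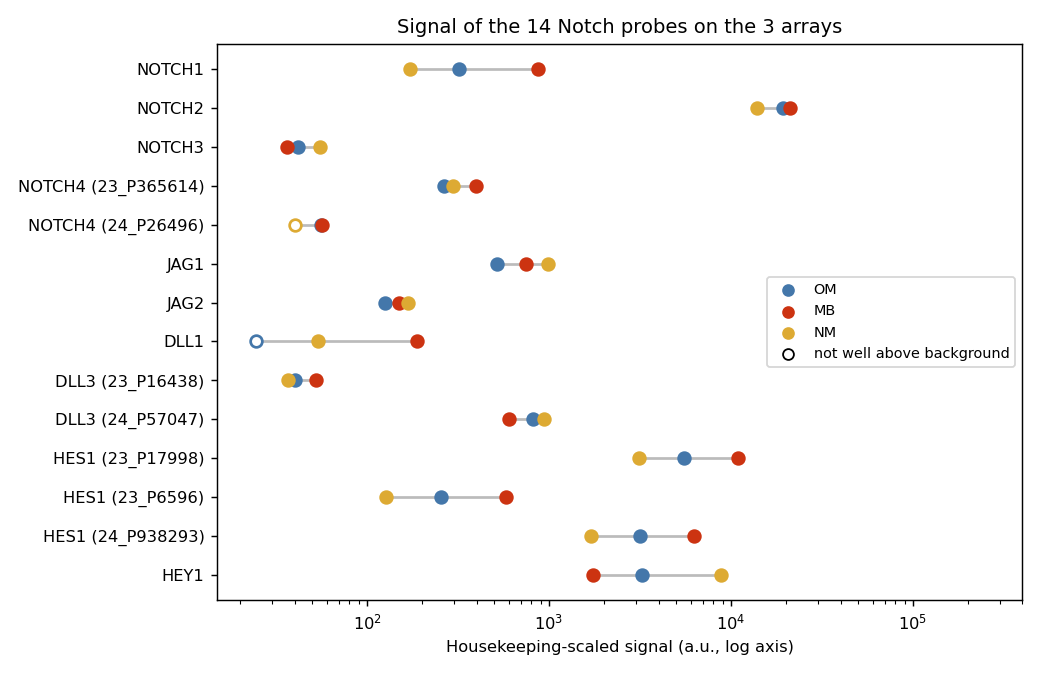
Housekeeping-scaled signal in a.u. (log axis) of each of the 14 probes on the OM, MB and NM arrays, 1 array each, where an open point was not well above background and probes of genes with several carry the probe number. The MB point is furthest right for NOTCH1, DLL1 and all 3 HES1 probes and furthest left for HEY1. By smaller margins it is also furthest right for NOTCH2, both NOTCH4 probes and the dimmer DLL3 probe. It is furthest left for NOTCH3 and the brighter DLL3 probe too. Levels of different probes cannot be set against each other.

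The HES1 promoter is shown because HES1 is the classical direct Notch target and its 3 probes gave like ratios. Promoters from the RefSeq table (GRCh38.p14) were matched for 7 of the 10 genes, namely NOTCH1, NOTCH2, NOTCH3, NOTCH4, JAG1, JAG2 and HES1. The 250 bases before the HES1 start site, chr3:194135898-194136147 on the plus strand, run 5′ to 3′ with the letters TGGGAA, the core of the RBPJ site, in capitals.
HES1 promoter: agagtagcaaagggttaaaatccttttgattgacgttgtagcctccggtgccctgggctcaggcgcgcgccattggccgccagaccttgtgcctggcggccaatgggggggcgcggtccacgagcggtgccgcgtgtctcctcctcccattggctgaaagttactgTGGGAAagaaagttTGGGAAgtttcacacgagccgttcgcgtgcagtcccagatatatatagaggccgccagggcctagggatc
The core occurred at 84 to 79 and again at 70 to 65 bases before the start, both in the direction of the gene, and the first was part of the longer GTGGGAA. Searched on both strands over the same 250 bases, TGGGAA was in 20.8% and GTGGGAA, which contains it, in 5.43% of 35116 promoters. Of the 7 matched genes, HES1 held TGGGAA and the receptor and ligand promoters did not, which says only that these letters are not in that window.

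Among the receptors, NOTCH1 differed most between populations. Its probe (hg17, chr9:136665601-136665660) was printed in 10 spots. The MB spots ran from 797 to 938 a.u. with a median of 861, the OM spots from 303 to 337 with a median of 322, and the NM spots from 141 to 161 with a median of 150. The spots of the 3 arrays did not overlap, with MB above OM and NM below it. They are repeats of a single probe on 1 array per population, so their separation says nothing of how cultures vary. A single NM spot at 225 a.u., marked as an outlier by the scanner software, was left out, and it too lay below the lowest OM spot.

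The mean NOTCH1 signal was 855 ± 40.1 a.u. (SD, n = 10 spots) in MB, 320 ± 9.09 (n = 10) in OM and 150 ± 6.02 (n = 9) in NM. The ratio of MB was 2.73 to OM and 5.10 to NM, and NM was 1.87-fold below OM. Among known genes with a usable ratio, 3.02% exceeded NOTCH1 in MB relative to OM and 1.54% relative to NM. With normexp background correction, which adds a constant to every spot, the ratio to NM was 3.81.

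**Figure D2:**
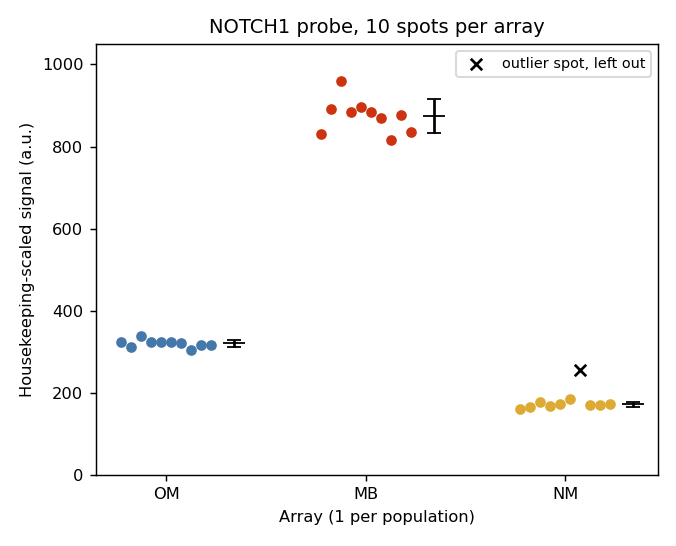
Housekeeping-scaled signal in a.u. of the 10 spots of the NOTCH1 probe on each array, with a bar at the mean, an error bar for the SD over the used spots, and a cross for the outlier spot of NM. The MB spots, at 816 to 959 a.u. after scaling, lie above all OM spots (303 to 337), and the used NM spots (160 to 184) lie below them.

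The known genes whose pattern was most like that of NOTCH1, by Euclidean distance in the log2 ratios of MB to each monolayer among 10341 genes, were SPRYD5 (distance 0.0064), ZNF124 (0.033) and FKSG44 (0.034). HES1 was at a distance of 0.71, with 153 genes closer, and HEY1 at 5.25, with 10190 closer. With 3 arrays, such likeness is a description.

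NOTCH2, a receptor of melanocytes and melanocyte stem cells, had 20502 a.u. in MB, 19397 in OM and 12148 in NM (chr1:120166900-120166959). The ratio of MB to OM was 1.08, and with spike-in scaling it was below 1 (0.887). NM had the lowest signal, 1.51-fold below MB and 1.40-fold below OM. NOTCH2 has partial copies elsewhere in the genome, and whether its probe also captures them was not tested. NOTCH3, best known from vascular smooth muscle, had 35.5 a.u. in MB, 41.5 in OM and 48.4 in NM (chr19:15132756-15132815). These signals were dim though well above background, and the log2 ratio of MB to OM, -0.19, was smaller than the spread of spots at this signal.

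NOTCH4, the receptor of endothelial cells, has 2 probes on chromosome 6. The brighter (chr6:32270602-32270661) had 389 a.u. in MB, 266 in OM and 259 in NM, which puts MB highest by a log2 ratio of 0.58 to OM and 0.43 to NM. The ratio of NM to OM was 1.11 after scaling and 0.976 with no scaling. The dimmer (chr6:32271556-32271615) had 55.3 a.u. in MB, 55.7 in OM and 35.2 in NM, the last not well above background. It gave a log2 ratio of 0.02 for MB to OM, so the probes disagreed on whether these populations differed.

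Endothelial markers were read beside NOTCH4 because of its usual cell type. Of these 5 genes, CDH5 was at background on every array, and PECAM1 was well above it in MB alone, at 87.7 a.u. VWF had 390 a.u. in MB, 185 in OM and 95.6 in NM, TEK was well above background in NM alone (203 a.u.), and KDR in OM alone (26.7 a.u.). Their summed unscaled signal was 506 a.u. in MB, 247 in OM and 340 in NM. Its largest part was VWF in MB and OM and TEK in NM, so the sum does not describe the 5 genes as a set. Whether they bear on the NOTCH4 values was not tested.

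Of the ligands, DLL1 differed most. This Delta ligand, which keeps neighbouring cells from differentiating in many tissues, has 1 probe in 1 spot (chr6:170509274-170509333). It had 184 a.u. in MB, 47.3 in NM and 24.4 in OM, where it was not well above background. The ratio of MB was 7.70 to OM, taken at the probe's own OM signal, and 3.49 to NM. The first is a bound but no strict lower limit, as the spread of spots at such signals is 0.27 on the log2 scale. The MB spot was even, with a mean of 225 a.u. and a median of 227 over its 63 pixels before background subtraction. These ratios hold for the deposited background subtraction, and with normexp correction the values were 2.62 to OM and 1.86 to NM. In RNA from whole cultures, more cells with a transcript and more transcript per cell cannot be told apart.

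JAG1, the Jagged ligand known for its part in heart, liver and inner ear development, had another order. Its signal was lowest in OM, 514 a.u., with 733 in MB and 869 in NM (chr20:10567061-10567120). NM was 1.93-fold above OM and 1.32-fold above MB, and MB was 1.46-fold above OM. With the mean of the 3 single-gene folds in place of the housekeeping mean, JAG1 in NM was 2.03-fold above OM. JAG2, its close relative, had 146 a.u. in MB, 125 in OM and 148 in NM (chr14:104679719-104679778). Its ratio to OM was 1.19 for MB, or 0.976 with spike-in scaling, and 1.35 for NM. Both Jagged genes were thus highest in NM, unlike NOTCH1 and DLL1. For JAG2 the margin was small, as NM was 1.13-fold above MB, and 1.02-fold with no scaling.

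DLL3, an unusual Delta family member that stays inside the cell and dampens Notch signalling, has 2 probes that differ in the transcripts they list. The brighter lists both transcript variants of the file and the dimmer lists variant 1 alone. The brighter is shown because the DLL3 result rests on it, and lies at chr19:44690317-44690376 in hg17, plus strand.
DLL3 brighter probe: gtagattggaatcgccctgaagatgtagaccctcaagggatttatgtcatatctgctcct
It had its lowest signal in MB, 589 a.u., with 819 in OM and 826 in NM. MB was 1.36-fold below OM and 1.56-fold below NM. The dimmer probe (chr19:44690472-44690531) had 51.4 a.u. in MB, 40.2 in OM and 32.1 in NM, and its log2 ratio of MB was 0.39 to OM and 0.52 to NM. The probes differed in direction, and the spread of spots at the signals of the dimmer one is 0.23 to 0.27.

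**Figure D3:**
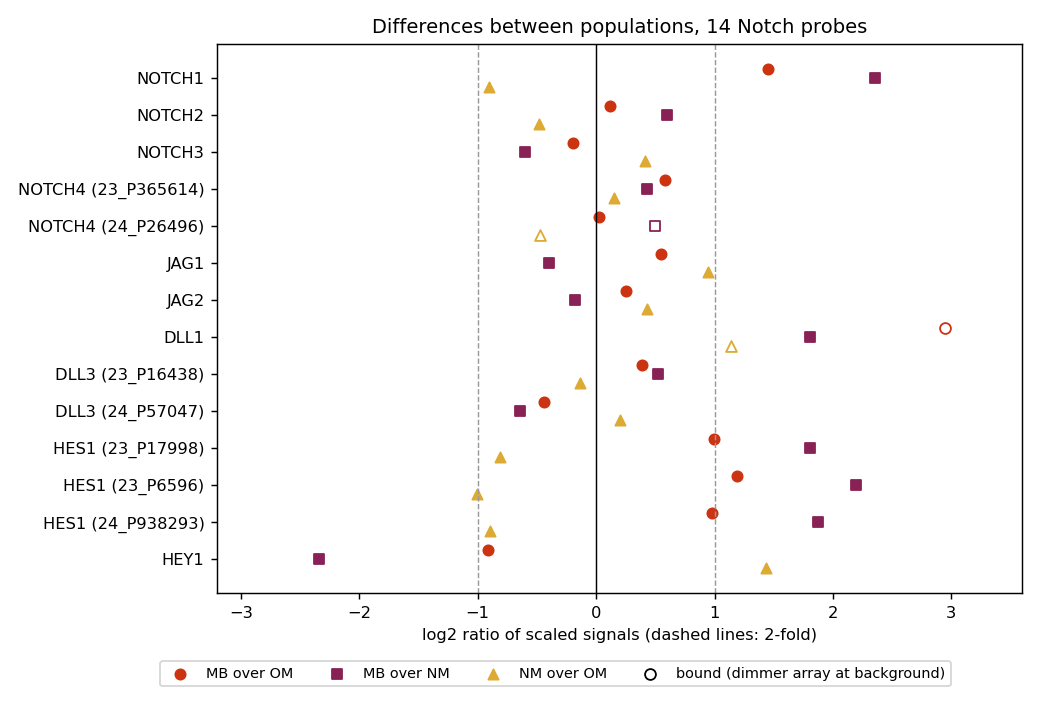
log2 ratios of the scaled signals between the populations (x axis) for each of the 14 probes, with dashed lines at 2-fold and open points for bounds. NOTCH1 and the 3 HES1 probes lie right of 0 in both MB ratios and left of it for the new over the original monolayer, while HEY1 lies the other way, at -0.91, -2.34 and 1.43.

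HES1, a repressor that holds back neuronal differentiation, has 3 probes on chromosome 3, each with its highest signal in MB and its lowest in NM. The brightest (chr3:195338878-195338937) had 10673 a.u. in MB, 5489 in OM and 2736 in NM. Its ratio of MB was 1.99 to OM, just under 2-fold, and 3.50 to NM, and NM was 1.76-fold below OM. The second (chr3:195336746-195336805) had 6113 a.u. in MB, 3173 in OM and 1497 in NM, with ratios of 1.97 and 3.66. The third is shown because its 60 bases are placed over 188 bases of the genome (chr3:195336978-195337165 in hg17, plus strand).
HES1 dimmest probe: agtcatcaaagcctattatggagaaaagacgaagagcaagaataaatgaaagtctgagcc
This probe had 567 a.u. in MB, 254 in OM and 111 in NM, with ratios of 2.28 to OM and 4.57 to NM. The 3 probes, at different places in the gene, thus gave log2 ratios of 0.98 to 1.19 to OM and of 1.81 to 2.19 to NM, all larger than the spread of spots. With spike-in scaling the ratios to OM were 1.62 to 1.87, under 2-fold for each probe.

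HEY1, a HES-related repressor that acts in vessels, heart and bone, ran opposite to HES1. Its probe (chr8:80838867-80838926) had 1698 a.u. in MB, 3262 in OM and 7711 in NM. MB was 5.06-fold below NM and 1.88-fold below OM, and NM was 2.69-fold above OM. Among known genes, 1.59% had a smaller ratio of MB to NM, and 2.05% a larger ratio of NM to OM. From low to high the populations were NM, OM and MB for HES1 and MB, OM and NM for HEY1.

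The rest of the pathway was read from a list of 63 other genes, of which 57 were on the array. Of these, 7 were not well above background on any array, namely the ligands and ligand-like genes DLL4, DLK1 and CNTN1, the coactivator MAML3, and the targets HES2, HES5 and HEYL. Counted as above, 6 of 49 genes were higher in MB relative to OM (6.66% of known genes) and 0 of 49 lower (3.81%). Of the higher genes, DNER passed the signal filter through MB alone. With only probes well above background on both arrays, 5 were higher. Relative to NM, 10 of 49 were higher in MB (11.1% of known genes) and 3 of 49 lower (9.23%). Here DNER, EP300 and MFNG passed the filter through MB alone. In NM relative to OM, 1 of 47 was higher, HES6 (4.68% of known genes), and 1 of 47 lower, MFNG (2.98%). Second probes did not give the same, with a log2 ratio of -0.51 against 1.28 for HES6 and of -0.03 against -1.13 for MFNG. The median log2 ratio of the 49 genes in MB was 0.28 to either monolayer, and over all known genes it was 0.15 to OM and 0.05 to NM.

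Other HES and HEY genes also ran in both directions. HEY2, a relative of HEY1 active in heart and vessels, had 1912 a.u. in MB, 625 in OM and 327 in NM. Its log2 ratio of MB was 1.65 to OM and 2.39 to NM, and its second probe gave 1.66 and 2.34. This is the order of NOTCH1 and HES1, and the reverse of HEY1. HES4 had 2524 a.u. in MB, 4091 in OM and 5193 in NM, with a log2 ratio of MB to NM of -1.20. HES6, which counters HES1 in neurogenesis, had 2957 a.u. in MB, 2486 in OM and 5311 in NM, while its second probe gave a log2 ratio of MB to NM of 0.14. CCND1, encoding cyclin D1, had log2 ratios of 0.50 to OM and 1.09 to NM.

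In the transcription complex, 6 genes had a usable ratio, from 0.11 to 1.13 on the log2 scale for MB to OM and from -0.37 to 1.69 to NM. RBPJ had 18881 a.u. in MB, 11772 in OM and 11700 in NM, and after scaling NM was 1.13-fold above OM. MAML1, a coactivator of the RBPJ complex, had log2 ratios of 0.95 to OM and 0.77 to NM, and MAML2, its relative, 0.77 and 1.05. The acetyltransferases recruited to the complex had 1.13 and 0.80 (KAT2B) and 0.83 and 1.69 (EP300). Among 11 co-repressors, TLE1 and TLE4, Groucho proteins that HES and HEY repressors recruit, passed 2-fold against both monolayers. Their ratios were 3.11 and 2.47 to OM and 3.72 and 3.20 to NM. Of all known genes, 6.66% were higher in MB by 2-fold relative to OM and 11.1% relative to NM.

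Genes that make and cut the receptor were read next. The sheddases ADAM10 and ADAM17 had log2 ratios of MB to OM of 0.21 and 0.15. Of 6 gamma-secretase genes, PSEN2, a catalytic subunit, was the only one to pass 2-fold, with a log2 ratio to NM of 1.33. In that comparison 11.1% of known genes were higher in MB by 2-fold. Among the enzymes that add sugars to NOTCH, POFUT1 had a log2 ratio to NM of -1.11, and MFNG had 1.04 by its brighter probe but 0.12 by the other. DTX2, a ubiquitin ligase of the Deltex family, had a log2 ratio to OM of 1.18. The noncanonical ligand DNER was not well above background in OM, with 107 a.u. in MB and 44.1 in NM. Its log2 ratio of MB was 2.39 to OM, a bound, and 1.12 to NM.

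**Figure D4:**
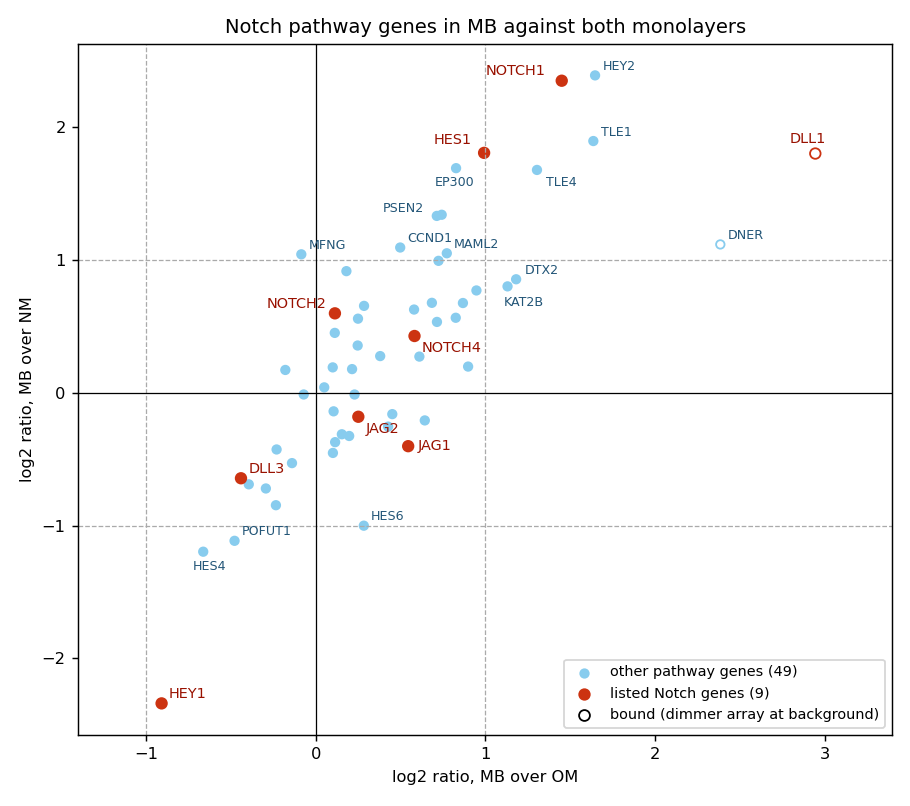
log2 ratio of MB to OM (x axis) and to NM (y axis) for 9 listed Notch genes and 49 other pathway genes by the brightest probe of each, with dashed lines at 2-fold and open points for genes with a bound. NOTCH1, DLL1, HEY2, TLE1, TLE4 and DNER lie past 2-fold at the upper right on both axes, and HES1 lies just short of 2-fold to OM. HEY1 lies furthest to the lower left, where HES4 and POFUT1 are also past 2-fold to NM. The MB array is part of both axes.

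Over the 10 processing alternatives that bear on a single probe, NOTCH1 in MB was 2.24 to 2.73 times OM and 3.81 to 5.69 times NM, and the brightest HES1 probe 1.63 to 1.99 and 3.18 to 3.90 times. The upper ends relative to OM came from the deposited value table, which held the same values as the reported ratios. HEY1 in NM was 4.54 to 5.58 times MB and 2.36 to 2.84 times OM. For DLL1, whose OM signal was not well above background, the value relative to OM was 2.62 with normexp and 7.70, the bound, as reported.

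**Figure D5:**
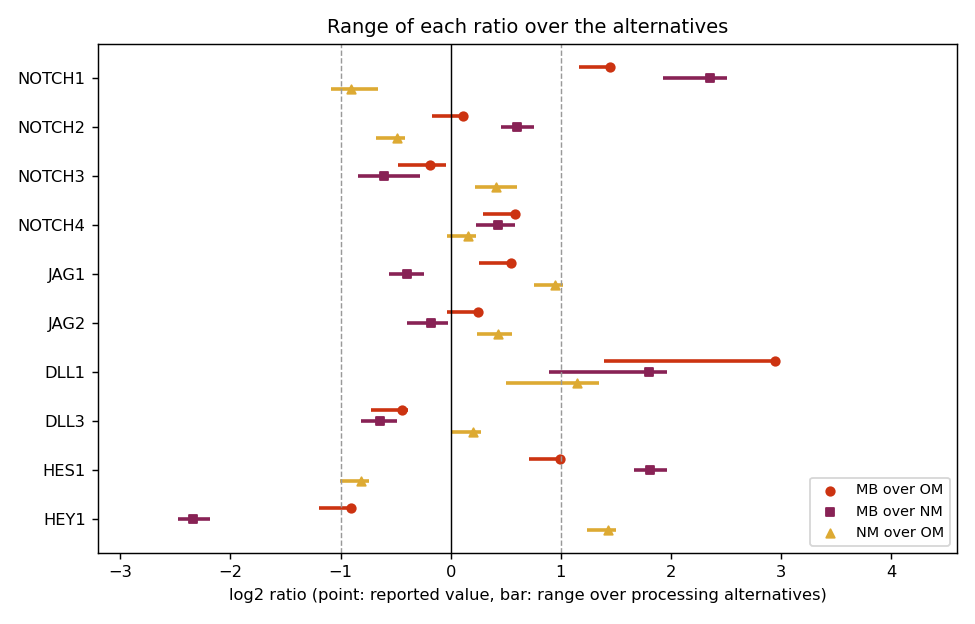
Reported log2 ratio (point) and its range over the processing alternatives (bar) for the brightest probe of each of the 10 genes, with dashed lines at 2-fold; the DLL1 ratios to OM are bounds. For MB relative to OM, the bars of NOTCH1 and DLL1 stay right of the 2-fold line, and that of NOTCH2 crosses 0. For MB relative to NM, the DLL1 bar crosses the 2-fold line, with 0.89 under normexp. The alternative with only probes well above background on both arrays, which leaves out DLL1 relative to OM, is not in the bars.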

How the data were processed

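Total RNA of the OM, MB and NM populations was hybridised to 1 array each (Agilent 4 × 44K, Cy3). The authors deposited spot intensity values from Feature Extraction 9.5.3.1. Per the file headers, a background surface fitted over the array was subtracted (on all 45015 spots of each array), a multiplicative detrend was on, and surrogates stood in for low values. The deposited value table held the same intensity values and served as an alternative.

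Control spots and outlier spots (77 to 81 per array) were omitted and spots of a probe averaged. For scaling, GAPDH, ACTB and HSP90AA1, the genes used by the study, were each read from the probe printed in 10 spots. Their arithmetic mean was 131555 a.u. (OM), 128596 (MB) and 115402 (NM). The probe of highest mean signal stood for a gene. Against an array not well above background, the ratio is called a bound. It uses whichever is higher there, the probe's signal or the lowest signal well above background of any probe. It is not a strict lower limit. Known genes carry a curated RefSeq mRNA identifier. With 1 array per population there is no test and no p-value, and the array number limits precision. The text names the members, pathway genes past 2-fold in MB (1 of them is not reported here), and the 3 genes nearest to NOTCH1. RBPJ, MAML1, ADAM10, ADAM17 and the genes not well above background were named after their values were seen. The members and lists were chosen with earlier results of these data known. On each array, 1 to 3 of the fibroblast, leukocyte and keratinocyte markers of each list (5, 4 and 4 genes) were well above background. Python 3.11.15, numpy 2.4.6, pandas 2.3.3, matplotlib 3.10.9, R 4.3.3 and limma 3.58.1 (normexp, offset 50) were used. The folds were tested on simulated data, with changes only in probes over 100 a.u. and well above background in OM. Bounds and dim signals were not covered. Probe coordinates are hg17, as in the files. Without an hg17 annotation here, exons and UTRs are not given.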

Additional observations from a re-analysis of the deposited data

How the results depend on the processing

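Of the 42 probe ratios of the listed genes, the 12 past 2-fold kept their sign under every alternative that applied to them, and 8 stayed past 2-fold. Keeping the sign is a weak check for these 12. The scaling shifts given below are small beside a 2-fold ratio, and the deposited value table held the same values. Of all 42, 37 kept their sign, and the exceptions were NOTCH2, JAG2 and the dimmer NOTCH4 probe in MB relative to OM, and the brighter NOTCH4 and dimmer DLL3 probes in NM relative to OM. Scaling shifted the median log2 ratio of all probes by -0.29 (MB relative to OM), -0.14 (MB relative to NM) and -0.15 (NM relative to OM) with 8 spike-in probes, by -0.19, -0.11 and -0.08 with the 75th percentile, by -0.10, -0.10 and -0.02 with quantile normalization, and by -0.03, 0.16 and -0.19 with no scaling. Counts that differed by over 1.5 times were as follows. The listed genes at 5-fold higher in MB than NM came to 0 with 75th percentile scaling, quantile normalization, spike-in scaling, the geometric mean of the housekeeping genes, the mean of 3 single-gene folds, normexp, no background subtraction, and outlier spots kept. Those 2-fold lower in MB than OM came to 1 with 75th percentile, quantile and spike-in scaling. Those 5-fold lower in MB than NM came to 0 with no scaling, normexp and no background subtraction. Those 5-fold higher in MB than OM came to 0 with normexp, with no background subtraction and with only probes well above background on both arrays, which leaves out DLL1 and makes the 2-fold count 1. Those 2-fold higher in NM than OM came to 2 with the geometric mean, the single-gene folds and no signal filter, and those 2-fold lower to 2 with no scaling and 1 with spike-in scaling. Of the other pathway genes, those 2-fold higher in MB than NM were 6 with spike-in scaling, and those lower were 1 with no scaling, normexp and no background subtraction. Those 2-fold lower in MB than OM were 1 with no signal filter. In NM relative to OM, those 2-fold lower were 0 with quantile normalization, normexp, no background subtraction and the mean over all probes, and 2 with no scaling and spike-in scaling, and those higher were 2 with no signal filter and 0 with the mean over all probes. The cause was not tested. No paired analysis was possible because each population has 1 array. Ratios of probes under 100 a.u. are the least precise.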
